A study of Gallus gallus with 9 samples.

Results

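The genes described here are the ligands and receptors of axon guidance in chicken retinal pigment epithelium (RPE), chosen by the family names in their gene symbols: semaphorins, plexins, neuropilins, ephrins, Eph receptors, Slits, Robos, netrins and UNC5 receptors. Of the 16635 genes in the table, 51 carried such a symbol. They were 18 semaphorins, 9 plexins and neuropilins, 4 ephrins, 9 Eph receptors, 3 Slits, 2 Robos and 6 netrins and UNC5 receptors, or 27 ligands and 24 receptors. The rule used symbols alone, and all 51 passed the filter on low values.

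RNA was sequenced from RPE cut out of eye sections by laser capture, in 9 libraries from White Leghorn chicken embryos at embryonic day 4 (E4), with 3 embryos in each of 3 groups. The intact RPE group was collected without surgery. The t-rRPE group, which the study calls transiently reprogrammed, was collected 6 h after retinectomy, the surgical removal of the neural retina. The rRPE group, called reprogrammed, was collected 6 h after retinectomy with fibroblast growth factor 2 (FGF2) added to the eye from a bead, and only tissue near the bead was captured. Whether the intact group was collected at the time of surgery or 6 h later is not stated. If at the time of surgery, the injured groups were also 6 h older, and surgery and these hours of development cannot be told apart. In rRPE, FGF2, the bead that carried it and the place of capture likewise cannot be told apart. Because each library is bulk captured tissue, fewer cells of a type and less RNA per cell cannot be told apart either.

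Guidance ligands are secreted or membrane-bound proteins that attract or repel growing axons and migrating cells through receptors on their surface. Semaphorins act through plexins, and the secreted class 3 semaphorins usually need a neuropilin as co-receptor. Ephrins are held in the membrane and signal to Eph receptor tyrosine kinases on a touching cell, while ephrin-bearing cells can also receive a signal in return. Slits act through Robos, and netrins through DCC and UNC5 receptors. No gene tested here carried the symbol DCC. In the eye these families are known for guiding retinal ganglion cell axons to the brain, for the graded Eph and ephrin map across the retina, and for shaping the vessels around the eye.

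The members were a small share of the RNA, with 0.181% to 0.239% of the reads on genes in a library, over 26167206 to 45563924 recovered reads. The unit throughout is the normalized count, the reads on a gene divided by a size factor of its library. Transcript lengths were not used, so a normalized count orders libraries for 1 gene but does not order genes by transcript number. In every library 38 members had at least 1 read. The other 13 (SEMA3C, SEMA3E, SEMA4C, SEMA4G, SEMA6C, PLXND1, EPHA4, EPHA5, ROBO2, NTN1, NTN3, UNC5A and UNC5D) were at 0 in at least 1 library, and each averaged under 300 normalized counts.

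**Figure D1:**
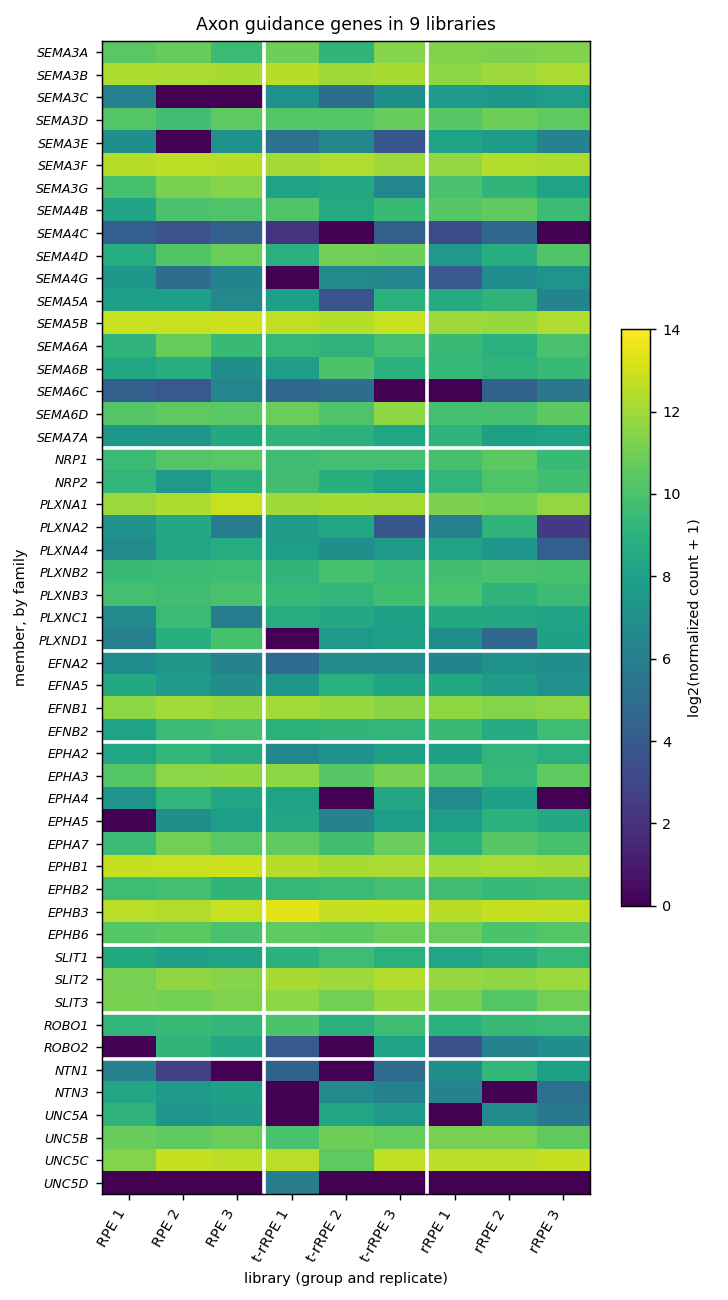
Levels of the 51 members (rows, by family) in the 9 libraries (columns, 3 per group), as log2(normalized count + 1) on the colour scale. EPHB3, EPHB1, SEMA5B, SEMA3F, UNC5C and SEMA3B keep bright rows in most libraries, and the dark cells are libraries in which 13 low members had 0 reads.

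The comparisons asked what retinectomy alone, retinectomy with FGF2, and the addition of FGF2 did to these genes. Differences were tested with limma on log2(normalized count + 1) across all 16535 genes that passed the filter. A gene was called at a Benjamini-Hochberg adjusted p of at most 0.05 with a fold change of at least 1 on the log2 scale, in either direction. Each pair of comparisons shares the 3 libraries of a group (RPE, t-rRPE or rRPE), so the comparisons are not independent.

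No member was called in any comparison with limma. In t-rRPE against RPE, 0.671% of all genes tested were called and 0 of 51 members; at an unadjusted p of at most 0.05 there were 5 members (9.80%), against 12.4% of all genes. Of these, 2 were higher and 3 lower, where 5.97% and 6.45% of all genes were. In rRPE against RPE, 1.03% of all genes were called and 0 members; the unadjusted count was 7 (13.7%), against 12.0%. Here 2 were higher and 5 lower, against 6.97% and 5.03% of all genes. In rRPE against t-rRPE, 0.0544% of all genes were called and 0 members, and the unadjusted count was 6 (11.8%), against 9.31%. It split into 2 higher and 4 lower, against 5.35% and 3.96% of all genes. With both directions together, the shares of members were thus near those of all genes. Split by direction, on few members, the share lower was above that of all genes in the comparisons of rRPE. The share higher was below it in every comparison. On the recovered reads edgeR also called 0 members in each comparison, and DESeq2 called 1, SEMA3G in t-rRPE against RPE.

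The members lay on both sides of no change. Their median log2 fold change was -0.05 in t-rRPE against RPE, with 22 members higher and 29 lower. It was -0.05 in rRPE against RPE, with 22 higher and 28 lower, and 0.00 in rRPE against t-rRPE, with 26 higher and 25 lower. The median of all genes tested was 0.00 in each. Without RPE replicate 1, in which several members described below were low, the medians against RPE were -0.26 and -0.28.

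Groups that did not overlap, in which each library of one lay above each of the other, were found for 7 members in t-rRPE against RPE (13.7%), where 15.1% of all genes did so. They were 2 higher and 5 lower, against 7.32% and 7.83% of all genes. There were 11 in rRPE against RPE (21.6% against 18.6%), 5 higher and 6 lower, where 9.71% and 8.94% of all genes were, and 7 in rRPE against t-rRPE (13.7% against 12.5%), 3 higher and 4 lower, where 6.84% and 5.68% were. With both directions together, these shares too were near the background. Split by direction, on few members, the share lower was above that of all genes in each comparison.

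**Figure D2:**
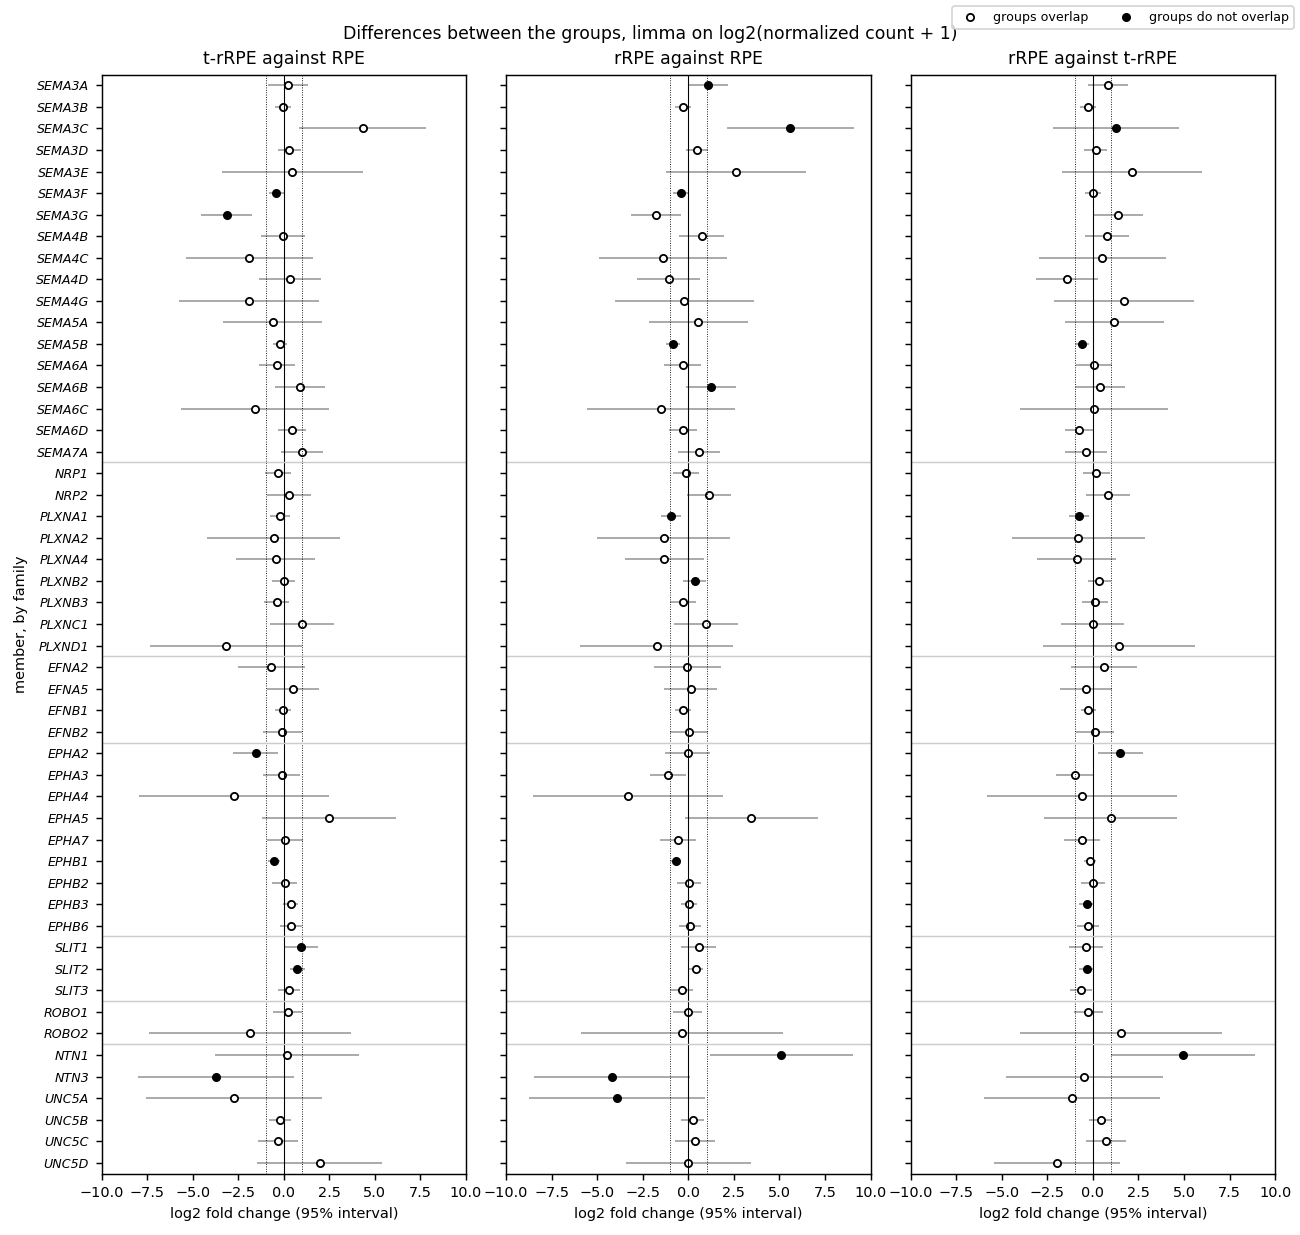
Log2 fold change of each member (rows, by family) in the 3 comparisons, with its 95% interval from limma. Filled points mark groups that did not overlap, dotted lines mark a log2 fold change of 1 either way, and the long intervals belong to members with few reads.

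Among the secreted and membrane-bound ligands, the semaphorin with the most reads was SEMA5B, a transmembrane semaphorin with thrombospondin repeats. It held 7234, 7348 and 7893 normalized counts without surgery (RPE), 6510, 5602 and 7303 after retinectomy alone (t-rRPE), and 3985, 3642 and 5100 with FGF2 (rRPE). All rRPE libraries lay below all libraries of the other groups, while t-rRPE and RPE overlapped. Its log2 fold change in rRPE against RPE was -0.83 ± 0.17 (SE), with an adjusted p of 0.0449 by limma, so it passed the p threshold but not the fold threshold. It was the only member to pass that p threshold in any comparison, where 1.11% of all genes did so in rRPE against RPE, and 0.702% and 0.0544% in t-rRPE against RPE and rRPE against t-rRPE with 0 members. The adjusted p for SEMA5B missed 0.05 without any single RPE library or without rRPE replicate 1 or 2 (0.0997 to 0.174), without the trend (0.245), in a fit of the 6 libraries alone (0.0745), with upper-quartile rescaling (0.056) and with edgeR (0.0658), and DESeq2 gave 0.000343. Against t-rRPE the difference was -0.62 ± 0.17, which did not pass (adjusted p = 0.265). In t-rRPE against RPE it was -0.22, with a 95% interval of -0.59 to 0.15.

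SEMA3F and SEMA3B, secreted class 3 semaphorins that lie near each other in the RefSeq annotation with 3 protein-coding genes between them, came next in reads. SEMA3F held 5883, 6339 and 5775 normalized counts in intact tissue, 4391, 5199 and 3986 in the t-rRPE libraries, and 3410, 5405 and 4878 in the rRPE libraries. The RPE libraries were above every injured library, by a modest margin. The log2 fold changes were -0.41 ± 0.19 in t-rRPE and -0.42 ± 0.19 in rRPE, and neither passed (adjusted p = 0.415 and 0.425). SEMA3B held 4980, 4797 and 4687 normalized counts in the RPE libraries, 5684, 4081 and 4525 in those of t-rRPE, and 3116, 4006 and 4744 in those of rRPE. Its groups overlapped, with intervals of -0.46 to 0.39 for t-rRPE and -0.73 to 0.12 for rRPE against RPE, all inside a log2 fold change of 1.

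SEMA3G, a class 3 semaphorin known in mammals mainly from endothelial cells, gave the lowest adjusted p of any member after retinectomy alone. It held 963, 2320 and 2839 normalized counts without surgery (RPE), 282, 353 and 92.5 after retinectomy alone (t-rRPE), and 1011, 577 and 273 with FGF2 (rRPE). Every t-rRPE library was below every RPE library, and rRPE lay between them, overlapping both. The log2 fold change in t-rRPE against RPE was -3.14 ± 0.63, with an interval of -4.52 to -1.75 and an adjusted p of 0.054. This is just above 0.05, and the call depended on the fit: SEMA3G was called with an offset of 5 in place of 1 (adjusted p = 0.0498), with DESeq2 (3.03e-05) and without t-rRPE replicate 2 (0.0464). Leaving out t-rRPE replicate 3 gave -2.55, and leaving out RPE replicate 1 gave -3.61. In rRPE the difference from RPE was -1.77 ± 0.63 (adjusted p = 0.264), and rRPE against t-rRPE gave 1.37 ± 0.63 (adjusted p = 0.544).

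The summed endothelial markers had the same order of libraries as SEMA3G within RPE, but not within t-rRPE or rRPE. Of 18 listed endothelial genes 14 were in the table and tested, and none was at 0 in all libraries of a group. Their summed normalized count was 7892 in RPE replicate 1 and 14976 and 15077 in the other RPE libraries, 4572 to 6470 in t-rRPE and 5887 to 6302 in rRPE. Of the 14, 12 were lower than in RPE by their fitted values in t-rRPE and 9 in rRPE. The RPE library with the lowest sum was also the one lowest in SEMA3G. In t-rRPE and in rRPE, replicate 3 had the highest sum (6470 and 6302) but the lowest SEMA3G (92.5 and 273). CDH5, the endothelial cadherin, was the 1 marker of this list called, in both injured groups; it held 1858, 2631 and 3367 normalized counts in intact tissue, 433, 502 and 847 in the t-rRPE libraries, and 654, 402 and 492 in the rRPE libraries. Markers of the periocular mesenchyme, the connective tissue around the eye, summed to 12761 to 18242 in intact RPE, 9968 to 12326 in t-rRPE and 12214 to 14583 in rRPE, over 17 of 18 listed genes, of which 1 was at 0 in all RPE libraries and 3 in all rRPE libraries. That sum is weighted to COL1A2, whose mean was 6805 in intact tissue, 8514 after retinectomy alone and 9295 with FGF2. By fitted values, 14 of the 17 markers were lower and 3 higher after retinectomy alone (median log2 fold change -1.85). With FGF2, 12 were lower and 4 higher (median -1.42). With limma 0 were called, and 8 and 3 were lower at an unadjusted p of at most 0.05, with 0 and 1 higher. The part of endothelial or mesenchymal cells in the SEMA3G values was not tested.

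PLXND1, a plexin of endothelial cells and the direct receptor of SEMA3E in mouse, had a like spread: 68.2, 454 and 968 normalized counts in the RPE libraries, 0, 181 and 237 in those of t-rRPE, and 122, 25.1 and 253 in those of rRPE. Here the groups overlapped, and the interval in t-rRPE against RPE ran from -7.33 to 1.02. As for SEMA3G, RPE replicate 1 was the lowest RPE library. The part of endothelial cells in these values was not tested.

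**Figure D3:**
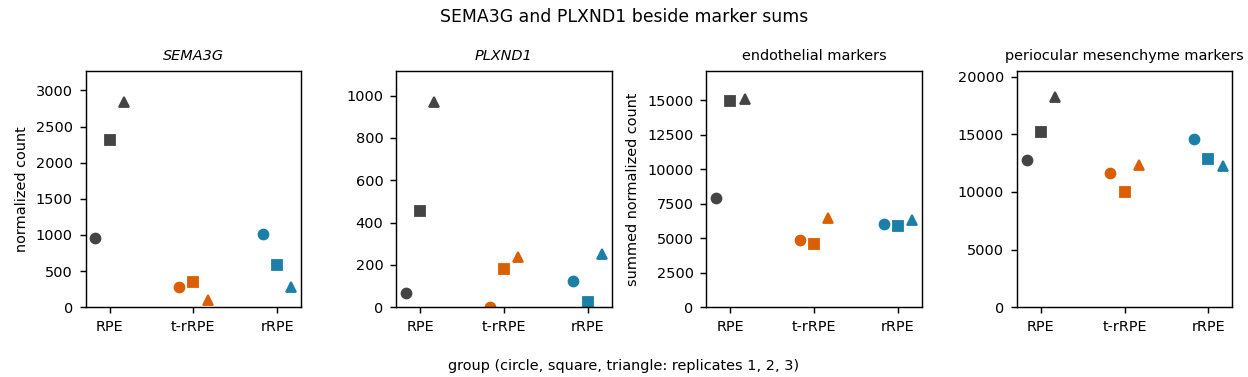
SEMA3G and PLXND1 in each library (normalized count) beside the summed normalized counts of the endothelial and periocular mesenchyme markers, with circles, squares and triangles for replicates 1, 2 and 3. RPE replicate 1 is lowest of the RPE libraries in all 4 panels, and the t-rRPE libraries lie below all RPE libraries in 3 of them, PLXND1 being the exception.

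SEMA3A and SEMA3C, repulsive or attractive class 3 ligands depending on the neuron, were higher in rRPE than in RPE, without passing the test. SEMA3A held 1351, 1689 and 777 normalized counts without surgery (RPE), 1892, 562 and 2779 after retinectomy alone (t-rRPE), and 2613, 2460 and 2595 with FGF2 (rRPE). The rRPE libraries lay close together and above all RPE libraries, while the t-rRPE libraries covered a range wider than either group. The log2 fold change in rRPE against RPE was 1.08 ± 0.50 (adjusted p = 0.426). The t-rRPE library with 562 was replicate 2, which also held the most reads of lens markers (a sum of 412988 over 17 of 20 listed genes, against 51841 and 206196 in the other t-rRPE libraries). These markers summed to 2974 to 3877 in RPE, where 3 of them were at 0 in all libraries, and to 25228 to 53920 in rRPE, and the part of this in the SEMA3A value was not tested.

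SEMA3C had few reads, with 69.2, 0 and 0 normalized counts in intact tissue, 129, 32.7 and 126 in the t-rRPE libraries, and 201, 174 and 220 in the rRPE libraries. All rRPE libraries were above all others, and 1 RPE library overlapped t-rRPE. The log2 fold change in rRPE against RPE was 5.59 ± 1.59 (adjusted p = 0.141). Its size rests on the offset added before taking logs, since 2 RPE libraries were at 0: it was 6.26 with an offset of 0.5, 4.04 with an offset of 5 and 3.10 with edgeR. Without RPE replicate 1 SEMA3C was called in rRPE against RPE by limma (7.63, adjusted p = 0.0234). The RPE libraries left in that fit were both at 0, so the call rests on the offset and on an RPE group without spread. With all libraries edgeR gave an adjusted p of 0.55, and DESeq2 gave none.

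In the RefSeq annotation SEMA3D, SEMA3A and SEMA3E are immediate neighbours, and SEMA3C lies 3 protein-coding genes beyond SEMA3E. SEMA3D held 1216, 821 and 1469 normalized counts in the RPE libraries, 1272, 1280 and 1727 in those of t-rRPE, and 1311, 1924 and 1540 in those of rRPE. Its groups overlapped, with log2 fold changes of 0.31 in t-rRPE and 0.47 in rRPE. SEMA3E averaged 90.7 normalized counts in intact RPE, 47.2 in t-rRPE and 186 in rRPE and overlapped throughout. All 4 genes had their highest group mean in rRPE, but none passed the test. Other members also had their highest group mean in rRPE, among them NRP2, UNC5B, UNC5C and PLXNB2.

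SEMA6B, a transmembrane semaphorin, was the other semaphorin with non-overlapping groups. It held 337, 451 and 124 normalized counts without surgery (RPE), 224, 1102 and 490 after retinectomy alone (t-rRPE), and 663, 548 and 719 with FGF2 (rRPE). The rRPE libraries were above the RPE libraries, with a log2 fold change of 1.26 ± 0.62 (adjusted p = 0.468), and t-rRPE overlapped both. Within t-rRPE, SEMA6B had the same order of libraries as the lens marker sums, but not within RPE or rRPE. The part of lens cells in the SEMA6B values was not tested. The remaining semaphorins (SEMA4B, SEMA4C, SEMA4D, SEMA4G, SEMA5A, SEMA6A, SEMA6C, SEMA6D and SEMA7A) had overlapping groups in every comparison. Their lowest adjusted p was 0.47, for SEMA7A in t-rRPE against RPE, where a log2 fold change of 0.99 had an interval of -0.17 to 2.15. SEMA4C, the lowest, averaged 15.6 normalized counts in intact RPE, 7.17 in t-rRPE and 11.1 in rRPE.

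The receptors of semaphorins were led in reads by PLXNA1, which transmits class 3 semaphorin signals together with neuropilins. It held 3792, 5007 and 7216 normalized counts in intact tissue, 4117, 4615 and 4503 in the t-rRPE libraries, and 2401, 2177 and 3435 in the rRPE libraries. Every rRPE library was below every library of both other groups. The log2 fold change was -0.98 ± 0.25 in rRPE against RPE (adjusted p = 0.0976) and -0.75 ± 0.25 in rRPE against t-rRPE (0.383), and neither passed with limma. DESeq2 on the recovered reads gave an adjusted p of 0.00666 for the former, at a log2 fold change of -1.0 that just missed the fold threshold before rounding. In t-rRPE against RPE the difference was -0.23, with an interval of -0.77 to 0.32.

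SEMA5B and PLXNA1 thus had the same order of groups, with rRPE lowest, and in both rRPE replicate 3 was the highest library of its group. That library also had the highest sum of 16 RPE markers in rRPE, 448257 normalized counts against 282589 and 304377 in replicates 1 and 2. The sum is weighted to the markers with the most reads, and the markers did not all follow it. In rRPE replicates 1, 2 and 3, PMEL held 62859, 89007 and 119135 normalized counts, while MITF held 1441, 1908 and 1210. In RPE the same sum was 378395 to 436678 and in t-rRPE 388268 to 499017, and no RPE marker was at 0 in all libraries of a group. Of the 16 markers, 14 were lower and 2 higher by their fitted values in rRPE against RPE, and 2 were called, both lower. Whether the share of pigmented cells bears on SEMA5B and PLXNA1 was not tested.

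NRP1, a co-receptor for class 3 semaphorins and for vascular endothelial growth factor, held 749, 1242 and 1358 normalized counts in the RPE libraries, 805, 888 and 912 in those of t-rRPE, and 968, 1402 and 702 in those of rRPE. The groups overlapped, and the rRPE difference from RPE was -0.14, between -0.87 and 0.60. PLXNB2, a receptor of class 4 semaphorins, held 720, 738 and 792 normalized counts without surgery (RPE), 566, 980 and 752 after retinectomy alone (t-rRPE), and 872, 1027 and 976 with FGF2 (rRPE). Its rRPE libraries were above the RPE libraries, yet the log2 fold change of 0.35 ± 0.29 did not pass (adjusted p = 0.714). NRP2, the other neuropilin, averaged 431 normalized counts in intact RPE, 517 in t-rRPE and 860 in rRPE. Its groups overlapped, at a log2 fold change of 1.12 in rRPE against RPE. PLXNA2, PLXNA4, PLXNB3 and PLXNC1 overlapped in every comparison.

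Of the Eph receptors, which respond to ephrins on neighbouring cells, EPHB1 had more reads in intact than in injured tissue. It held 7015, 7117 and 7719 normalized counts in intact tissue, 5735, 4632 and 4748 in the t-rRPE libraries, and 4280, 4731 and 4451 in the rRPE libraries. The intact libraries were all above the injured ones, whose groups overlapped each other. EPHB1 differed from RPE by -0.54 ± 0.15 in t-rRPE on the log2 scale (adjusted p = 0.169) and by -0.70 ± 0.15 in rRPE (0.0506), and rRPE against t-rRPE gave -0.16, between -0.48 and 0.16. With limma the adjusted p of the rRPE value lay on either side of 0.05. It was 0.0218 to 0.0492 in the fit of 6 libraries, with an offset of 5, with a mean of at least 10, with quantile normalization and without t-rRPE replicate 1 or 2. It was 0.0507 to 0.0525 without the filter, with upper-quartile rescaling or with an offset of 0.5, 0.058 without t-rRPE replicate 3, 0.0874 with the replicate block, 0.102 to 0.191 without any single RPE or rRPE library and 0.263 without the trend, and edgeR gave 0.0733. The value stayed under the fold threshold in all of these. The lower ends of the intervals against RPE were -0.86 and -1.02. DESeq2 gave adjusted p of 0.0102 and 0.000114 for these differences, at log2 fold changes of -0.53 and -0.70. Beside this, 14 of 18 tested neural retina markers (22 listed) had lower fitted values in t-rRPE than in RPE and 10 in rRPE, with 1 called, higher, in each. Their sums were 17669 to 25581 normalized counts without surgery, 20081 to 24950 after retinectomy and 24139 to 27067 with FGF2, and 1 marker was at 0 in all RPE libraries and 3 in all t-rRPE libraries. Of 10 tested erythroid markers (19 listed), 10 were lower in t-rRPE and 9 in rRPE and 0 were called with limma (unadjusted p of at most 0.05 for 3 and 1), with sums of 278629 to 430894, 146385 to 392117 and 211851 to 538018. The part of retinal or blood cells in the values of EPHB1, SEMA3F and NTN3, which were all highest in RPE, was not tested.

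EPHB3, the Eph receptor with the most reads, held 6065, 5283 and 7335 normalized counts in the RPE libraries, 10428, 7080 and 7076 in those of t-rRPE, and 5697, 6810 and 6628 in those of rRPE. The rRPE libraries were below all t-rRPE libraries, with a log2 fold change of -0.34 ± 0.19 that did not pass (adjusted p = 0.627). Against RPE it was 0.38 in t-rRPE and 0.04 in rRPE, with overlapping groups.

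EPHA2, an Eph receptor of many epithelia, was lower after retinectomy alone than in both other groups. It held 294, 623 and 420 normalized counts without surgery (RPE), 91.1, 136 and 245 after retinectomy alone (t-rRPE), and 256, 592 and 474 with FGF2 (rRPE). The t-rRPE libraries did not overlap either group, though the highest of them, at 245, lay close to the lowest rRPE library. Against RPE the log2 fold change was -1.55 ± 0.56 (adjusted p = 0.303), and rRPE against t-rRPE gave 1.51 ± 0.56 (0.458), while rRPE against RPE was -0.03. SLIT2, described below, was the other member whose t-rRPE libraries lay apart from both groups, there above them.

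EPHA3 held 1236, 2980 and 3288 normalized counts in intact tissue, 3201, 1327 and 2200 in the t-rRPE libraries, and 1160, 646 and 1543 in the rRPE libraries. RPE replicate 1 was low and overlapped rRPE, and the log2 fold change of -1.13 ± 0.45 in rRPE did not pass (adjusted p = 0.341). EPHA4 and EPHA5 were each at 0 in some libraries and overlapped in every comparison, as did EPHA7, EPHB2 and EPHB6. EPHB2 and EPHB6 had intervals inside a log2 fold change of 1 in all comparisons, EPHB2 from -0.64 to 0.72 in both groups against RPE.

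The ephrins, which are the ligands of these receptors, had overlapping groups in every comparison, and none passed the test. EFNB1, a transmembrane ephrin and the ephrin with the most reads, held 3164, 4213 and 3678 normalized counts in the RPE libraries, 4289, 3609 and 2916 in those of t-rRPE, and 3319, 2659 and 3063 in those of rRPE. Its groups overlapped, and its intervals against RPE were -0.48 to 0.40 in t-rRPE and -0.72 to 0.15 in rRPE. EFNB2, another transmembrane ephrin, known as a marker of arteries, held 277, 775 and 937 normalized counts without surgery (RPE), 502, 570 and 600 after retinectomy alone (t-rRPE), and 681, 389 and 810 with FGF2 (rRPE). EFNA5, an ephrin attached to the membrane by a lipid anchor and known from the retinotectal map, held 359, 180 and 119 normalized counts in intact tissue, 166, 472 and 288 in the t-rRPE libraries, and 369, 207 and 132 in the rRPE libraries. The remaining ephrin, EFNA2, averaged 118 normalized counts in intact RPE, 80.7 in t-rRPE and 111 in rRPE.

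The Slits were all higher in t-rRPE than in RPE by their fitted values, but none passed the test. SLIT2, the Slit with the most reads, held 2215, 3272 and 2779 normalized counts in the RPE libraries, 4559, 3986 and 5266 in those of t-rRPE, and 3716, 3210 and 3857 in those of rRPE. The t-rRPE libraries were above all others, and rRPE overlapped RPE. In t-rRPE against RPE the log2 fold change was 0.75 ± 0.20 (adjusted p = 0.151 with limma and 0.0131 with DESeq2), and in rRPE against t-rRPE it was -0.35 ± 0.20 (0.619). In rRPE against RPE it was 0.40, between -0.03 and 0.83.

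SLIT1 held 356, 253 and 287 normalized counts without surgery (RPE), 499, 792 and 474 after retinectomy alone (t-rRPE), and 303, 415 and 668 with FGF2 (rRPE). The t-rRPE libraries were above the RPE libraries, with a log2 fold change of 0.95 ± 0.43 (adjusted p = 0.403), and rRPE overlapped both. SLIT3 held 2329, 2169 and 2463 normalized counts in intact tissue, 3128, 2040 and 3519 in the t-rRPE libraries, and 2293, 1203 and 2086 in the rRPE libraries. Its groups overlapped in every comparison, and rRPE against t-rRPE gave -0.65, between -1.28 and -0.03 (adjusted p = 0.523).

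The Slit receptors ROBO1 and ROBO2, which lie 1 protein-coding gene apart in the RefSeq annotation, were unlike in their spread. ROBO1 held 603, 724 and 611 normalized counts in the RPE libraries, 1065, 489 and 796 in those of t-rRPE, and 484, 678 and 743 in those of rRPE. ROBO2 held 0, 580 and 347 normalized counts without surgery (RPE), 14.1, 0 and 274 after retinectomy alone (t-rRPE), and 10.2, 75.2 and 117 with FGF2 (rRPE). Both overlapped in every comparison. For ROBO2 no difference could be measured, since its interval in rRPE against RPE ran from -5.88 to 5.20.

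Among the netrins, NTN1, the founding secreted netrin, held 72.1, 5.5 and 0 normalized counts in intact tissue, 21.7, 0 and 28.7 in the t-rRPE libraries, and 126, 615 and 250 in the rRPE libraries. All rRPE libraries were above all others. The log2 fold changes were 5.11 ± 1.80 against RPE (adjusted p = 0.256) and 4.94 ± 1.80 against t-rRPE (0.442), and both rest on the offset because libraries at 0 enter them. Over the alternatives that kept all libraries of the comparison, the former lay between 3.67 and 5.48, and it was 6.73 without RPE replicate 1 and 3.63 without RPE replicate 3. NTN3, another netrin, held 323, 194 and 253 normalized counts in the RPE libraries, 0, 98.0 and 70.4 in those of t-rRPE, and 74.1, 0 and 33.9 in those of rRPE. The RPE libraries were above every injured library, with log2 fold changes of -3.72 ± 1.96 in t-rRPE (adjusted p = 0.467) and -4.19 ± 1.96 in rRPE (0.435). For NTN3 too the sizes rest on the offset and on the library at 0 in each injured group. In t-rRPE the value ran from -4.05 to -2.19 over the alternatives with all libraries, and from -4.9 without t-rRPE replicate 2 to -1.58 without t-rRPE replicate 1. In rRPE it ran from -4.53 to -2.83, and from -5.42 without rRPE replicate 1 to -2.3 without rRPE replicate 2. Neither netrin passed the test, and they lay on opposite sides of RPE in rRPE.

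UNC5C, a repulsive netrin receptor and the member of its family with the most reads, held 2726, 6914 and 6157 normalized counts without surgery (RPE), 5968, 1494 and 6518 after retinectomy alone (t-rRPE), and 6061, 6030 and 6908 with FGF2 (rRPE). The groups overlapped, with 1 low library in RPE (replicate 1) and 1 in t-rRPE (replicate 2) and none in rRPE. UNC5B, a receptor also known from blood vessels, held 1694, 1526 and 1855 normalized counts in intact tissue, 1008, 1929 and 1654 in the t-rRPE libraries, and 2277, 2223 and 1535 in the rRPE libraries, and overlapped throughout. UNC5A held 545, 154 and 205 normalized counts in the RPE libraries, 0, 302 and 186 in those of t-rRPE, and 0, 101 and 48.3 in those of rRPE, below RPE in every rRPE library (log2 fold change -3.92 ± 2.20, adjusted p = 0.54). That size rests on the rRPE library at 0, being -1.87 without rRPE replicate 1, -5.21 without rRPE replicate 2, and -4.26 to -2.59 over the alternatives with all libraries. UNC5D had reads in t-rRPE replicate 1 alone, with 59.7 normalized counts.

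**Figure D4:**
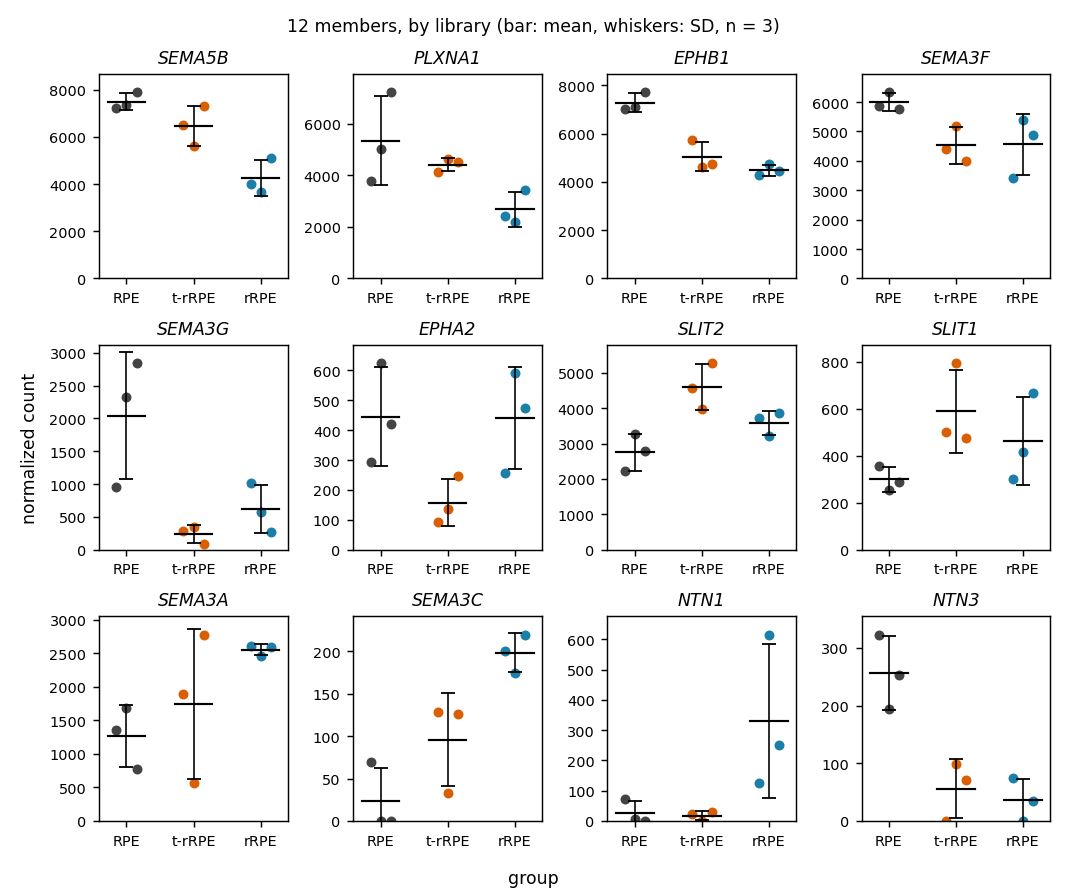
Normalized counts of 12 members in each library (points, by group), with the mean (bar) and SD (whiskers, n = 3), each panel from 0 on its own scale. SEMA5B and PLXNA1 are lowest in rRPE, EPHB1, SEMA3F and NTN3 highest in RPE, SEMA3G and EPHA2 lowest and SLIT2 highest in t-rRPE, and SEMA3C and NTN1 highest in rRPE.

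How small a difference could be seen depended on the reads. For the 19 members with a mean of at least 1000 normalized counts over the 9 libraries, the median half-width of the 95% interval in rRPE against RPE was 0.61 on the log2 scale, and the median coefficient of variation was 18.4% in intact RPE, 19.1% in t-rRPE and 20.6% in rRPE. For the 14 members between 300 and 1000 the half-width was 1.11, and for the 18 members below 300 it was 3.74, with coefficients of variation of 76.3% in intact RPE, 88.5% in t-rRPE and 79.8% in rRPE. The interval lay inside a log2 fold change of 1 in all 3 comparisons for 7 members, EFNB1, EPHB2, EPHB3, EPHB6, PLXNB2, SEMA3B and SEMA3F. For these a change of 2-fold or more in either direction lay outside the intervals, and for the other members at least 1 interval reached it.

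**Figure D5:**
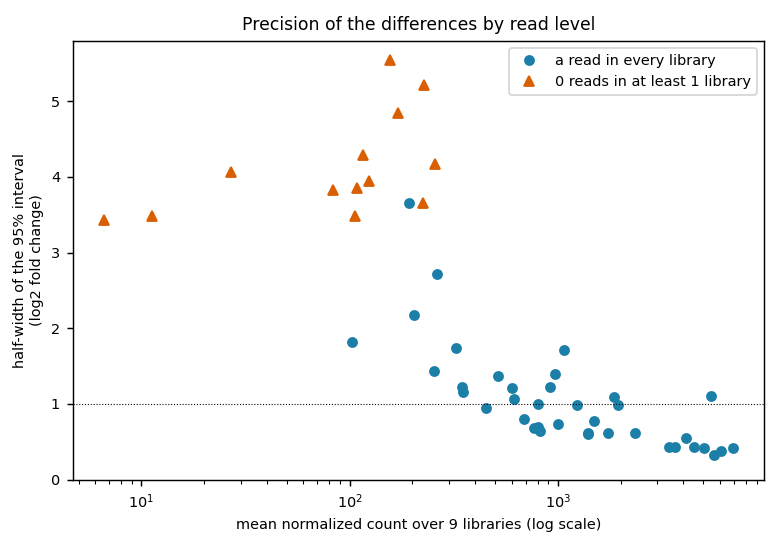
Half-width of the 95% interval of the log2 fold change in rRPE against RPE (vertical axis) against the mean normalized count over the 9 libraries (horizontal axis, log scale), with 1 point for each of the 51 members and triangles for the 13 at 0 in at least 1 library. The half-width falls from over 3 for members at 0 somewhere to a median of 0.61 above 1000 normalized counts; the dotted line marks 1.

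A list of 79 partners and effectors of these pathways (among them co-receptors, adhesion molecules and chemokine receptors) was set beside them. It held 68 genes that were in the table and tested. In t-rRPE against RPE, 2 were called higher and 1 lower (0.671% of all genes were called), with a median log2 fold change of -0.04. At an unadjusted p of at most 0.05 there were 4 higher and 2 lower, where 12.4% of all genes passed. In rRPE against RPE, 3 were called higher and 1 lower (1.03% of all genes), with a median of 0.03, and the unadjusted counts were 6 higher and 8 lower, where 12.0% of all genes passed. In rRPE against t-rRPE, 0 were called with limma or edgeR and 1 with DESeq2 (0.0544% of all genes with limma), with 6 higher and 5 lower at an unadjusted p of at most 0.05, where 9.31% of all genes passed, and a median of 0.09.

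CXCR4, the receptor of the chemokine CXCL12 and a guidance receptor for migrating cells, rose in both injured groups. It held 149, 228 and 311 normalized counts without surgery (RPE), 754, 2356 and 958 after retinectomy alone (t-rRPE), and 4402, 4137 and 3353 with FGF2 (rRPE). The 3 groups did not overlap in any pair. The log2 fold change was 4.16 ± 0.43 in rRPE against RPE (adjusted p = 0.00248) and 2.44 ± 0.43 in t-rRPE against RPE (0.0343). The rRPE call held under every alternative tried, and the t-rRPE call was lost without any single RPE or rRPE library, without t-rRPE replicate 3, without the trend and in a fit of the 6 libraries alone. In rRPE against t-rRPE the difference of 1.72 ± 0.43 did not pass (adjusted p = 0.217). Within each injured group, CXCR4 had the same order of libraries as the summed lens markers, but not within RPE. The group mean of CXCR4 was highest in rRPE (3964), and that of the lens sums in t-rRPE (223675, against 43670 in rRPE). The part of lens cells in the CXCR4 values was not tested.

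CHL1, an adhesion molecule of the L1 family and a co-receptor for SEMA3A in mouse, was at 0 in the 3 RPE libraries, at 31.5, 637 and 271 normalized counts in t-rRPE, and at 384, 133 and 83.2 in rRPE. Its mean was set against a floor of 3 reads per library, taken as 2.88 normalized counts in the shallowest RPE library. The mean was 109-fold this floor after retinectomy alone, and 69.3-fold with FGF2. This floor does not bound the RPE level, since a gene at 0 in 1 library could hold many reads in another of its group. ROBO2, for example, held 0, 580 and 347 normalized counts in the RPE libraries. The t-rRPE mean rests largely on replicate 2 (637), and the lowest t-rRPE library held 31.5. Within each injured group, CHL1 had the same order of libraries as the summed lens markers. Their sums were 51841, 412988 and 206196 after retinectomy alone, 53920, 51863 and 25228 with FGF2, and 2974 to 3877 without surgery. The part of lens cells in the CHL1 values was not tested. CDON, a cell-surface co-receptor of Sonic hedgehog, held 661, 799 and 493 normalized counts in intact tissue, 1083, 774 and 949 in the t-rRPE libraries, and 1649, 2337 and 1544 in the rRPE libraries. It rose in rRPE against RPE (log2 fold change 1.5 ± 0.29, adjusted p = 0.0379), with all rRPE libraries above all others. NCAM1, the neural cell adhesion molecule, held 5279, 5512 and 5434 normalized counts in the RPE libraries, 2559, 3195 and 2061 in those of t-rRPE, and 3007, 2550 and 2352 in those of rRPE. It fell in t-rRPE (-1.08 ± 0.20, adjusted p = 0.0389) and in rRPE (-1.04 ± 0.20, adjusted p = 0.0331), and every injured library was below every intact one. The calls of CHL1, CDON and NCAM1 were each lost when any single RPE library was left out. The number of listed genes called in t-rRPE against RPE went from 3 to 0 when any single RPE or rRPE library, or t-rRPE replicate 3, was left out. In rRPE against RPE it went from 4 to 1, CXCR4, when any single RPE or rRPE library was left out.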

How the data were processed

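Laser-captured RPE RNA (poly-A enriched) was sequenced from 9 embryos, 3 in each group. Per the submitters' processing notes, reads were handled with Trim Galore 0.6.1, cutadapt 1.18, STAR 2.7.3, StringTie 2.0.4 and DESeq2 1.22.2 on the GRCg6a build. The deposited signal is the gene count divided by the size factor of each library, which the authors computed with DESeq2. Every value was a whole multiple (within 0.001) of 1 step per library, worth 0.768 to 1.303 normalized counts, so whole reads were recovered (share 1.0) for the count models. Here, limma 3.58.1 in R 4.3.3 was fitted to log2(normalized count + 1) with a trend, in 1 model of group means over all 9 libraries without a replicate block, for 16535 genes with a summed count of at least 20. The other 100 genes were left out. The offset of 1 shrinks the fold change of low genes, while a library at 0 can enlarge it.

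The members and the gene lists were chosen with earlier results of these data known. Values in every library are given for members with non-overlapping groups (up to 6 per direction and comparison, by p) and for the 3 members of each family with the most reads; SEMA3D and PLXND1, and ranges of others, were added after their values were seen. The partner genes named are those called. Alternatives were offsets of 0.5 and 5, no filter, a mean of at least 10, quantile and upper-quartile scaling, no trend, 6-library fits, a replicate block, each library left out, edgeR 4.0.16 and DESeq2 1.42.0. The scripts were tested on simulated data. Of the members, 50 matched RefSeq by symbol and SEMA4C did not; since the RefSeq table is of another build, only gene order was taken from it. Libraries of different groups with the same replicate number had deviations that correlated at -0.031 to 0.06, against -0.064 to 0.03 for those with other numbers. These ranges overlap but do not exclude a small shared effect. The study does not pair its samples, so the numbers were not taken to pair embryos in the main fit.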

Additional observations from a re-analysis of the deposited data

How the results depend on the processing

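With 3 libraries a group, counts at the threshold moved while the fold changes of the genes followed kept their sign in each of the 20 alternatives. These genes all had non-overlapping groups in the comparison in which they were followed. For them, leaving out a library or changing the offset, filter, trend or block could not reverse the sign, so the kept signs are no evidence of stability. Members called in t-rRPE against RPE numbered 1 with an offset of 5 and 1 with DESeq2 (both SEMA3G), and 0 to 1 with a library left out; in rRPE against RPE the count was 0 to 1 with a library left out. The counts of members by adjusted p alone, of partner genes and of all genes were followed under these alternatives only after seeing the data. By adjusted p alone, members in t-rRPE against RPE numbered 1 with an offset of 5, 3 with DESeq2 and 0 to 1 with a library left out. In rRPE against RPE they numbered 2 with an offset of 5, with a mean of at least 10 and with quantile normalization, 0 with upper-quartile rescaling, without a trend and with edgeR, 3 with DESeq2, and 0 to 2 with a library left out. In rRPE against t-rRPE DESeq2 gave 1. Partner genes called in t-rRPE against RPE numbered 1 without a trend and with edgeR, 0 in the fit of 6 libraries and 0 to 3 with a library left out; in rRPE against RPE they numbered 2 without a trend and 1 to 4 with a library left out, and in rRPE against t-rRPE DESeq2 gave 1. With a library left out, the median member fold change ranged from -0.26 to 0.07, from -0.28 to 0.04 and from -0.07 to 0.16 in the order of comparisons above, and members with non-overlapping groups, which a group of 2 reaches more easily, numbered 7 to 15, 11 to 21 and 7 to 17. The highest of these were reached without RPE replicate 1 (15 and 21) and without t-rRPE replicate 2 or rRPE replicate 3 (17 each).

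The replicate block changed no count of members. It took the partner genes called to 1 in t-rRPE against RPE and 2 in rRPE against RPE, and all genes called from 111, 170 and 9 to 64, 132 and 6. All genes called numbered 507, 575 and 230 with DESeq2, 48, 101 and 6 with edgeR, and 0, 231 and 0 in fits of 6 libraries.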
